A study of Mus musculus with 12 samples.

Results

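A set of 32 autosomal genes is described here. Each had a probe that was well above background in every one of 4 mouse morulae from in vitro fertilisation (IVF). The same probe was well above background in at most 1 of 8 morulae cloned from Sertoli cells. The members were picked by the scanner software's detection flag alone: a probe of the gene had to carry the flag "well above background" on all 4 IVF arrays and on 0 or 1 of the clone arrays, and 1 entry was kept per gene. Gsc, Isl1 and Tbx18 were left out of the set. Of 11012 autosomal genes with a probe detected on all 4 IVF arrays, the 32 members were 0.291% (34 of 15185 probes, since Dkk1 and Irx2 each had 2 qualifying probes). They lay on 16 chromosomes. Since detection in IVF embryos against clones made the choice, every difference between those classes given here is a description and carries no test.

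The 12 arrays each held amplified RNA of a single whole embryo, cultured in KSOM medium for 72 h after activation, and the labels give (C57BL/6 x DBA/2) F1 as the strain of every embryo. IVF embryos 1 and 3 were male and 2 and 4 female, and none was injected. The clones were all male by their labels and carried the nucleus of a Sertoli cell, the somatic cell that nurses germ cells in the testis. At 6 to 7 h after activation, when they were at the 1-cell stage, 4 of them received a control siRNA (siCont clones 1 to 4) and 4 an siRNA against Xist, the RNA that silences an X chromosome (siXist clones 1 to 4). Cloning and injection came together, so the IVF embryos differ from either clone class in both.

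Xist, the target of the siRNA, lay between -7.06 and -4.95 in male IVF embryos (1 of 2 detected), between 5.16 and 5.22 in female IVF embryos, between 4.56 and 5.63 in siCont clones and between 1.34 and 2.46 in siXist clones on the brightest of its 4 probes. Here and below, a level is the log2 processed signal minus the 75th percentile of its array, so that 1 unit is a doubling and 0 is the 75th percentile itself. Between 50.8% and 61.5% of probes were well above background per array, and 0 spots of the 12 arrays were saturated. The 3 classes lay on a slide each, so slide and class cannot be told apart. With 12 arrays, precision is limited throughout. In a whole embryo, fewer cells of a type and less RNA per cell cannot be told apart either. Of the genes listed for the first lineages, 22 of 24 measured pluripotency genes and 21 of 23 trophectoderm genes were detected in all IVF embryos, with 22 and 22 on at least 3 siCont arrays and 22 and 20 on at least 3 siXist arrays. Of 27 measured Sertoli genes, 15 were detected on all IVF arrays, 16 on at least 3 siCont arrays and 17 on at least 3 siXist arrays, while Amh, Lhcgr and Inha were on none of the 12. Of 22 cumulus genes the counts were 6, 8 and 9, with Amh, Inha, Ereg and Btc on none.

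A fertilised egg starts with a sperm and an egg genome whose chromatin has been shaped for development, and it switches on its own transcription during the first cleavages. In a clone the genome of a differentiated cell has to be reset by the egg in the same short time, and some genes that embryos transcribe stay silent in part of the clones. Promoters rich in CpG dinucleotides are mostly free of DNA methylation and open in early embryos, whereas CpG-poor promoters more often depend on tissue factors and are often methylated in somatic cells. A morula transcribes housekeeping and early lineage genes strongly.

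Below the detection threshold is not the same as without signal. With the scanner software's more lenient flag, which asks only for a signal significantly above the local background, 27 of the 32 members had signal on 2 or more clone arrays, and Slc28a2, Crtac1, Pax9 and Cdh22 on all 8. The members are therefore called undetected in clones, not lost, and this refers to the chosen probe of each gene. Another probe of Atg3, of Rab3gap2 and of Pabpc2 was well above background on all 8 clone arrays. For Neurod2 and Tfap2b another probe was so on 7, for Rpl39l on 6 and for Pcnx2 on 5. With every probe required to meet the clone side, 23 members were left. On the lenient flag 21 genes met the same rule, and 5 of them were members here, namely C8b, Rab3gap2, Fbxl21, Xdh and Mpst.

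**Figure D1:**
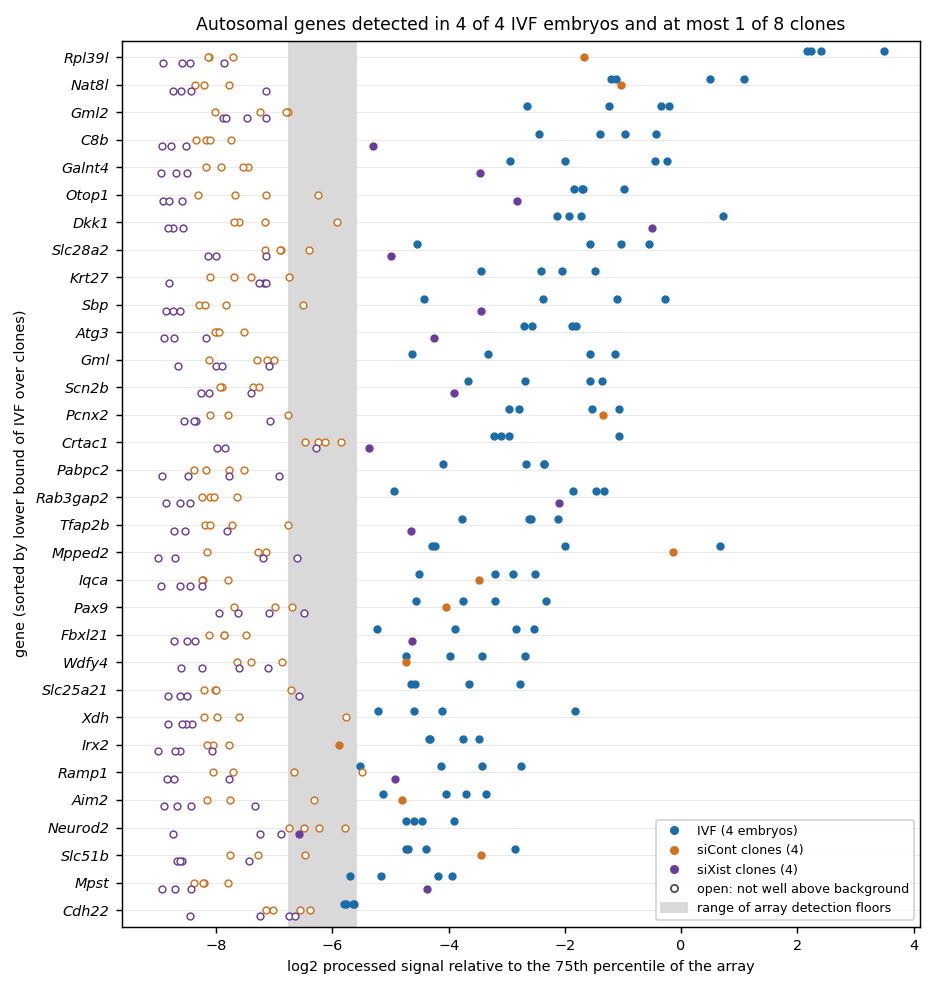
Each row is 1 of the 32 members and each point 1 embryo, on the horizontal axis of log2 processed signal relative to the 75th percentile of the array, with IVF embryos in blue, siCont clones in orange and siXist clones in purple. Open points were not well above background, and the grey band spans the detection floors of the arrays, from -6.74 to -5.59. Every member has 1 filled clone point or none. Rpl39l at the top lies between 2.17 and 3.49 in IVF embryos, while Cdh22 at the bottom lies just at the band.

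The sizes below are lower bounds on the scale used here. For each clone array a value under the detection floor of that array, the lowest signal that any probe well above background had there, was raised to the floor, and the IVF mean was set against the mean of the 8 clones. The bounds ran from at least 1.47-fold to at least 309-fold with a median of 10.2-fold. They were 8-fold or more for 19 members, 16-fold or more for 8 and under 4-fold for 4. The bounds do not hold under every processing. Another background correction (normexp) was run with an offset of 50 added to every signal. After it and quantile normalisation, the median log2 difference was 1.47, against 3.36 for the bounds. For Rpl39l it was 5.86 against 8.27. IVF signals of the members were mostly dim: when the probes detected on all IVF arrays were split by signal into 4 equal bins, 24 of the 32 members lay in the lowest bin, 7 in the next, 1 above that and 0 in the highest. This concerns signal, which also depends on the probe, and not the number of transcripts. The 231 clone values that were not well above background had a median of -7.99, with quartiles of -8.45 and -7.24. In 18 of the 32 members the lowest IVF embryo lay above the highest clone, against 2.21% of 14556 autosomal probes detected on all IVF arrays and measured on every array. The rule fixes most of that count, so nothing is read from it.

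The promoters of the members differ widely, and 6 of them are shown because the results return to these genes. Each is the stretch of 250 bases before the annotated start, written 5′ to 3′ on the strand of the gene, from RefSeq on GRCm38.p6. CG dinucleotides and the motif TATAAA are in capitals. Rpl39l has the largest difference of the set and a CpG-rich promoter, and C8b is shown as a CpG-poor one. Pax9 and Slc25a21 are neighbours on opposite strands of chromosome 12. Krt27 and Dkk1 hold TATAAA.
Rpl39l, chr16:10169978-10170227, plus strand: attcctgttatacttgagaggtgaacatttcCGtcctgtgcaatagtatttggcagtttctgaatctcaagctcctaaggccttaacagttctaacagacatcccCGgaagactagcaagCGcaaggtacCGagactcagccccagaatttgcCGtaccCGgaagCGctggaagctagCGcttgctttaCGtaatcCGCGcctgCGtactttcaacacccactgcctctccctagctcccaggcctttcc
C8b, chr4:104766067-104766316, plus strand: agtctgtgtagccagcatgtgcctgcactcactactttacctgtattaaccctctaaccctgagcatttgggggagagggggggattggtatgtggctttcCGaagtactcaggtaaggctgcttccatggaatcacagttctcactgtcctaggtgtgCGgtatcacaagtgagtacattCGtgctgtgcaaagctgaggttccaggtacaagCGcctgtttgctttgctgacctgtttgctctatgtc
Pax9, chr12:56695221-56695470, plus strand: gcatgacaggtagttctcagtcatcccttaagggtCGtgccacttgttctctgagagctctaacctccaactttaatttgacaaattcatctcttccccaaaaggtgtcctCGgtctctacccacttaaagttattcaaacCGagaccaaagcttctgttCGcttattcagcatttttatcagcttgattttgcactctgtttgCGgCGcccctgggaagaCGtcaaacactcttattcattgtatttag
Slc25a21, chr12:57197473-57197722, minus strand: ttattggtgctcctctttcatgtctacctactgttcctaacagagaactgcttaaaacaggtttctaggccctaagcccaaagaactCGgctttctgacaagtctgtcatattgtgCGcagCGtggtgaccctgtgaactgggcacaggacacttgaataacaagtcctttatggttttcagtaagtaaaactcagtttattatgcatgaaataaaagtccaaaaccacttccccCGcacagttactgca
Krt27, chr11:99351119-99351368, minus strand: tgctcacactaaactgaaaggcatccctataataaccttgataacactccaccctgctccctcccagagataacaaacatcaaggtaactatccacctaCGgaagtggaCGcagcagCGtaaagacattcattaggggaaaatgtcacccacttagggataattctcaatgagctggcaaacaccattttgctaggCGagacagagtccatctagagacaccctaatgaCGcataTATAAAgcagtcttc
Dkk1, chr19:30549497-30549746, minus strand: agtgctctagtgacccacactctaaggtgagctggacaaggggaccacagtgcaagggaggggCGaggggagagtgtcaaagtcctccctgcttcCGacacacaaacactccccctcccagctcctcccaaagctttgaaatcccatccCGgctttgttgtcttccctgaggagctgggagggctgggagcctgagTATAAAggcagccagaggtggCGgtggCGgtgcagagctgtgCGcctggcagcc

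In the full window of 250 bases before to 50 bases after the start, 26 of the 32 members had a promoter in the RefSeq table. Those not matched were Nat8l, Gml2, Galnt4, Gml, Pabpc2 and Xdh. Observed over expected CpG had a median of 0.428 in the 26 members, against 0.765 in 8823 other autosomal genes detected on all IVF arrays and 0.260 in 2638 genes detected on none of them. Among 1147 genes whose IVF signal lay within the quartiles of the members, the median was 0.626. A window counted as CpG-rich with a ratio of at least 0.6 and at least 50% G and C. By this measure 9 of 26 members (34.6%) were CpG-rich, namely Rpl39l, Atg3, Crtac1, Rab3gap2, Fbxl21, Irx2, Neurod2, Mpst and Cdh22. The same share was 68.1% in all IVF-detected genes, 51.3% in those of like signal and 18.8% in genes not detected in IVF embryos. The ratio was 0.836 for Rpl39l, 0.317 for C8b, 0.679 for Pax9 with 47.0% G and C, 0.292 for Slc25a21, 0.370 for Krt27 and 0.327 for Dkk1. TATAAA, searched on both strands, was in 3 of the 26 windows (11.5%), those of Dkk1, Krt27 and Crtac1, against 8.0% of all IVF-detected genes and 11.2% of those of like signal. These are counts of letters in 1 window per gene, and no binding or methylation was measured.

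Members that make or read RNA come first. Rpl39l, a ribosomal protein gene best known from male germ cells and a close relative of the housekeeping gene Rpl39, lay at 2.17, 3.49, 2.41 and 2.24 in IVF embryos 1 to 4. It was at -8.12, -1.67, -7.71 and -8.14 in siCont clones 1 to 4 and at -8.45, -8.58, -8.92 and -7.86 in siXist clones 1 to 4. Thus siCont clone 2 alone was detected, and it still lay below every IVF embryo. The bound was at least 309-fold, the largest of the 32, and at least 461-fold without siCont clone 2. Pabpc2, a poly(A)-binding protein gene, was at -2.87 ± 0.83 (SD, n = 4) in IVF embryos and between -8.93 and -6.93 in the clones, none of which was detected (at least 10.53-fold). Another Pabpc2 probe was detected in all embryos and differed by 0.11, as described below.

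Of the secreted and signalling members, Dkk1, a secreted antagonist of Wnt ligands that shapes the early body axis, lay at 0.72, -1.93, -2.14 and -1.72 in IVF embryos 1 to 4. The siCont clones were at -7.16, -7.60, -5.92 and -7.69, and the siXist clones at -8.58, -8.74, -0.50 and -8.83. Only siXist clone 3 was detected, at a level within the IVF range, so the classes overlapped by 1 embryo (at least 18.6-fold, and 30.5-fold without that clone).

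C8b, the beta chain of complement component C8, which joins the pore that complement drills into membranes, read -0.97, -1.39, -0.43 and -2.45 in IVF embryos. The siCont clones read -8.18, -8.34, -7.74 and -8.11, and the siXist clones -8.52, -5.31, -8.93 and -8.78. The single detected clone, siXist clone 2, was below all 4 IVF embryos (at least 28.0-fold). C8b was the only member among 41 measured genes of the complement and coagulation list, 17 of which were detected in all IVF embryos and 20 on at least 3 arrays of either clone class. Its partner chain C8a was on none of the 12 arrays.

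Sbp encodes a spermine-binding protein known from the prostate, and has a near copy, Sbpl, beside it on chromosome 17 that the same probe may bind. It lay at -0.27, -4.43, -1.11 and -2.38 in IVF embryos, at -8.30, -6.51, -7.82 and -8.20 in siCont clones and at -8.63, -8.74, -3.45 and -8.86 in siXist clones. The IVF embryos themselves were spread over more than 4 units, and siXist clone 3 fell within that spread (at least 14.0-fold). Crtac1, a matrix protein of cartilage, was at -2.59 ± 1.02 (n = 4) in IVF embryos, with siXist clone 4 detected at -5.37 and the other clones between -7.99 and -5.86 (at least 11.3-fold). Ramp1, which forms the receptor for the peptide CGRP, had a bound of 4.33-fold. Its detected clone, siXist clone 1, was at -4.92, within the IVF range. In siCont clone 3, not well above background, Ramp1 was at -5.49, above IVF embryo 2 at -5.53.

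The surface and transport members began with a pair of neighbours. Gml2 and Gml encode small surface proteins of the Ly6 type, anchored by a lipid. Gml2 was at -1.24, -0.21, -0.35 and -2.66 in IVF embryos, at -6.77, -7.25, -6.80 and -8.03 in siCont clones and at -7.46, -7.14, -7.88 and -7.83 in siXist clones. No clone was detected and no clone came near the lowest IVF embryo (at least 35.6-fold). Gml was at -3.33, -1.57, -1.14 and -4.64 in IVF embryos and between -8.66 and -7.01 in the clones, again with none detected on this probe (at least 12.1-fold). For both genes IVF embryo 4 was the lowest IVF embryo.

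Otop1, a proton channel of taste cells and of the inner ear, read -1.68, -1.84, -1.71 and -0.99 in IVF embryos. The siCont clones read -7.14, -8.32, -6.24 and -7.67 and the siXist clones -2.82, -8.59, -8.91 and -8.81. The 4 IVF embryos were close together (SD 0.38), and the only detected clone, siXist clone 1, was below them (at least 19.2-fold). Scn2b, an accessory subunit of voltage-gated sodium channels, was at -2.32 ± 1.07 (n = 4) in IVF embryos, at -3.90 in siXist clone 3 and between -8.26 and -7.26 in the remaining clones (at least 12.03-fold).

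Solute carriers, the transporters of small molecules, gave 3 members out of 216 family genes detected in all IVF embryos. Slc28a2, a sodium-coupled nucleoside transporter, lay at -1.57, -4.54, -1.03 and -0.55 in IVF embryos, at -6.40, -7.16, -6.88 and -6.89 in siCont clones and at -7.14, -5.0, -8.01 and -8.14 in siXist clones. IVF embryo 2 was far below the other IVF embryos and just above siXist clone 2, the 1 detected clone (at least 17.8-fold). Slc25a21, which carries oxodicarboxylates into mitochondria, was at -3.92 ± 0.89 (n = 4) and was detected in 0 clones (at least 5.10-fold). Slc51b, a subunit of the bile acid exporter, was at -4.17 ± 0.89 (n = 4) in IVF embryos and at -3.45 in siCont clone 2, within the IVF range (at least 3.35-fold). Cdh22, a cadherin, had the smallest bound, 1.47-fold: its IVF values of -5.80, -5.65, -5.76 and -5.63 stood barely over clone values of -8.45 to -6.39, and the lenient flag found it on all 8 clone arrays.

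Among enzymes, Nat8l, which makes N-acetylaspartate and is known from neurons, read -1.13, 1.07, -1.21 and 0.50 in IVF embryos. The siCont clones read -8.22, -8.37, -7.79 and -1.03 and the siXist clones -8.43, -8.60, -7.14 and -8.75. Detection in siCont clone 4 was at the level of IVF embryos 1 and 3, and the other 7 clones were all undetected (at least 44.0-fold, and 69.5-fold without siCont clone 4). Galnt4, which starts O-linked sugar chains on mucins, was at -1.99, -0.25, -0.46 and -2.94 in IVF embryos, at -8.18, -7.46, -7.54 and -7.92 in siCont clones and at -8.51, -3.46, -8.95 and -8.69 in siXist clones. It was thus detected in siXist clone 2 alone, below the IVF range (at least 22.2-fold).

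Mpped2, a metallophosphoesterase, varied most among IVF embryos of all members, at -4.23, -2.0, -4.28 and 0.68, and was detected in siCont clone 1 at -0.14 (at least 8.37-fold, 14.3-fold without that clone). Xdh, the enzyme that makes uric acid from xanthine, was detected in 0 clones at an IVF level of -3.94 ± 1.48 (n = 4, at least 4.89-fold). Mpst, which moves sulphur from mercaptopyruvate, had a bound of 2.38-fold.

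Krt27, a keratin of the hair follicle, lay at -1.48, -2.41, -3.45 and -2.06 in IVF embryos, at -6.75, -7.40, -7.69 and -8.10 in siCont clones and at -7.18, -7.15, -8.81 and -7.26 in siXist clones. No clone was detected, and the lowest IVF embryo was well over the highest clone (at least 15.1-fold). It was the 1 member of the keratin family, of which 26 genes were detected in all IVF embryos.

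Atg3 and Rab3gap2 act in membrane traffic. Atg3, the enzyme that attaches LC3 to lipid during autophagy, was at -2.24 ± 0.46 (n = 4) in IVF embryos and at -4.24 in siXist clone 2, with the other clones between -8.89 and -7.53 (at least 13.4-fold). Rab3gap2, a regulator of Rab GTPases, was at -4.95, -1.47, -1.33 and -1.87 in IVF embryos 1 to 4 and at -2.11 in siXist clone 2, within the IVF range (at least 9.95-fold). For both genes another probe gave a different picture, described below.

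Transcription factors of later development made up a further group. Pax9, needed for pharyngeal pouches, teeth and vertebrae, was at -3.46 ± 0.94 (n = 4) in IVF embryos and at -4.04 in siCont clone 1, within the IVF range (at least 5.85-fold). It was the 1 member of the list of gastrulation and organ regulators, of which 68 were measured and 33 detected in all IVF embryos. Tfap2b, an AP-2 factor of kidney and neural crest, was at -2.78 ± 0.70 (n = 4), above siXist clone 2 at -4.64 (at least 9.57-fold). Irx2, an Iroquois homeobox factor, was at -3.97 ± 0.43 and Neurod2, a neuronal bHLH factor, at -4.43 ± 0.36 (n = 4 each), with bounds of 4.75-fold and 3.53-fold. For Tfap2b and Neurod2 another probe, close to the floor, showed no such difference, as described below. Pax9 and Irx2 were 2 of 47 genes of the homeobox families detected in all IVF embryos.

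The remaining members have mixed roles. Pcnx2, a multi-pass membrane protein of the pecanex family, was at -2.09 ± 0.93 (n = 4) in IVF embryos and at -1.35 in siCont clone 1 (at least 12.01-fold, 18.4-fold without that clone). Another Pcnx2 probe differed far less, as described below. Iqca, named for a calmodulin-binding IQ motif, was at -3.28 ± 0.86 (n = 4, at least 6.25-fold) and was detected in siCont clone 2 at -3.48. Fbxl21, an F-box protein that acts on the clock protein cryptochrome, had a bound of 5.30-fold. The immune genes Wdfy4, which serves cross-presentation in dendritic cells, and Aim2, a sensor of cytosolic DNA, had bounds of 5.25-fold and 4.08-fold.

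None of the members belonged to the lists of pluripotency, trophectoderm, primitive endoderm, 2-cell stage, oocyte, germline, sperm, Sertoli or cumulus genes or of signalling ligands. The number of listed genes detected in all IVF embryos was 17 of 23 for primitive endoderm, 7 of 12 for the 2-cell stage, 22 of 30 for oocyte genes and 16 of 22 for germline genes silenced by methylation. Those lists were written with earlier results of these data known and are given as counts only.

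Clones were undetected in patterns of their own. On the chosen probe, 7 members were detected in 0 clones (Gml2, Krt27, Gml, Pabpc2, Slc25a21, Xdh and Cdh22). The other 25 were detected in a single clone, 10 of them in a siCont clone and 15 in a siXist clone. By embryo, siCont clones 1 to 4 detected 4, 5, 0 and 1 members and siXist clones 1 to 4 detected 2, 8, 4 and 1. The embryo with most, siXist clone 2, held C8b, Galnt4, Slc28a2, Atg3, Rab3gap2, Tfap2b, Fbxl21 and Mpst. The embryo with none, siCont clone 3, also had the smallest share of probes detected (50.8%) and the lowest 75th percentile of signal (504 against 645 to 1118 elsewhere), and the part of this in its count was not tested. When a member was detected in a clone, its level was within the IVF range in 14 of 25 cases, below it in 11 and above it in 0. The detected clone lay within the IVF range for Nat8l, Pcnx2 and Mpped2, just under the lowest IVF embryo for Scn2b, Slc28a2 and Galnt4, and farther below it for C8b, Atg3 and Rpl39l.

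**Figure D2:**
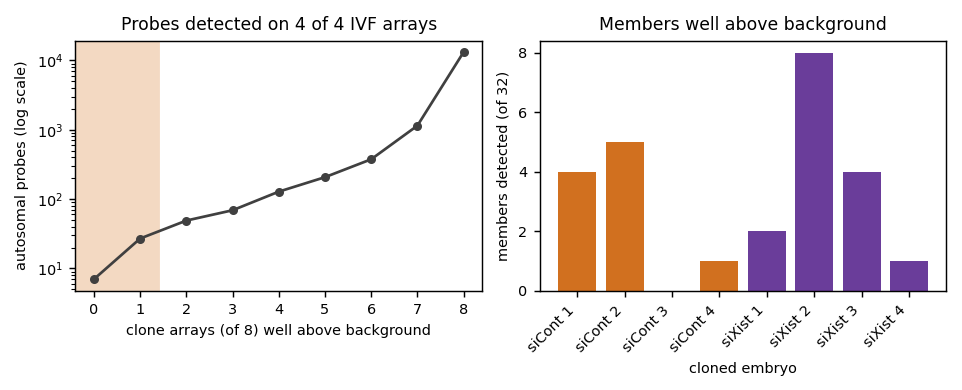
The left panel gives, on a log scale, the number of autosomal probes detected on all 4 IVF arrays by the number of clone arrays on which they were detected, with the chosen range of 0 and 1 shaded. The counts rise from 7 probes at 0 arrays and 27 at 1 to 13178 at 8. The right panel gives the members detected in each clone, from 0 in siCont clone 3 to 8 in siXist clone 2.

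The threshold cuts through a graded series. Probes detected on all IVF arrays numbered 7 at 0 clone arrays, 27 at 1, 49 at 2, 69 at 3 and 13178 (86.8%) at all 8. The members just inside with the highest IVF level were Rpl39l (2.58), Nat8l (-0.19) and Dkk1 (-1.27), all detected in 1 clone. With up to 2 clone arrays allowed, 80 genes met the rule, the 32 members included. Among those just outside, with 2 clone arrays, were the genes of the transcription factors Foxf2 at 0.30 and Sox2 at -0.18. Foxf2 was at -0.56 and -1.25 in siXist clones 1 and 4, and Sox2 at 0.73 in siCont clone 4 and -2.38 in siXist clone 2. The turned rule, with 0 IVF arrays and at least 7 clone arrays, held for 37 autosomal genes, so the set described here is not larger than its mirror image. On chromosome X 5 genes met the rule. The number of X genes detected on all IVF arrays was not counted. The 5 are therefore not a share and cannot be set against the autosomal counts.

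Female IVF embryos gave a view that the choice need not use. When genes were picked on the male IVF embryos and the clones only, 163 probes of 157 genes qualified. Of these, 34 (20.9%) were detected in both female embryos, 63 in 1 and 66 in neither. Over all 16889 autosomal probes detected in both male embryos, 89.9% were detected in both females, and over 2783 of them with a signal between the quartiles of the picked probes it was 70.2%. The 34 are by construction the probes of the 32 members. Most genes that the male embryos alone would have given were thus not detected in every female embryo. Detection of these probes differed from embryo to embryo within the IVF class. The picked probes also had to be undetected in nearly all clones, which was not asked of the probes of like signal. Nothing is therefore read from the gap between 20.9% and 70.2%, and its cause was not tested.

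The sex of the IVF embryos was compared because all clones were male. In the fit across 24849 probes (limma, adjusted by Benjamini-Hochberg over all of them), 0 of the 32 members were called between female and male IVF embryos, against 4 probes in all (0.0161%). At an unadjusted p under 0.05 it was 0 members, where 386 probes (1.55%) passed. Of the members 16 were higher and 16 lower in females. Xdh differed by -1.93 ± 0.88 (SE, limma adjusted p = 1.00) and Sbp by -2.72 ± 1.63 (SE, limma adjusted p = 1.00), and neither passed. Leaving out single arrays moved the Xdh difference between -3.08 and -0.79. With 2 embryos of each sex, differences of this size could not be told from the spread of embryos. The rule also asks for detection in all 4 IVF embryos, so a gene undetected in either sex could not be in the set. The 0 of 32 is therefore partly fixed by the choice of members.

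The clone classes, siXist and siCont, were set against each other in the same fit. There 0 of 32 members were called (limma, adjusted p), where 5 of 24849 probes (0.0201%) were. At an unadjusted p under 0.05, 1 member passed (3.13%), against 3298 probes (13.3%). Slc51b was lower in siXist clones by -2.09 ± 0.87 (SE, limma adjusted p = 0.355, between 0.258 and 0.592 over 22 alternatives). Its siCont clones were at -6.47, -3.45, -7.76 and -7.28 and its siXist clones at -8.59, -8.68, -8.63 and -7.43, so most of these values were not well above background and the high one was siCont clone 2. Neurod2 differed by -1.05 ± 0.48 (adjusted p = 0.383, between 0.267 and 0.912). In the authors' deposited table it was 0.085, where the constants of the arrays raise every probe by 1.14 in siXist over siCont clones. Over all members 11 were higher and 21 lower in siXist clones, with a median of -0.44, and the median of all probes was -0.18. The rule itself admits a member only if at most 1 clone of either class was well above background, so a gene that returned in several siXist clones could not be in the set. The 0 of 32 is therefore largely fixed by the choice of members, and the differences compare mostly dim values.

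Other probes of the same genes were a separate reading of them, though of the same embryos. There were 20 such probes for 17 members, and 15 members had a single probe. Each probe binds its own stretch of the transcript, so levels are not set against each other and only the differences between classes are. Of the 20, 2 also met the rule, 5 were detected in IVF embryos and in most clones, 7 in some embryos and 6 rarely in any class.

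Rpl39l had the largest difference on another probe as well. That probe read 6.68, 7.13, 6.57 and 6.74 in IVF embryos. The siCont clones read -0.71, 1.44, -0.36 and -8.12 and the siXist clones -0.15, 1.65, -6.79 and -0.25. Here 6 of 8 clones were detected, so this probe does not meet the rule, yet every clone was far below every IVF embryo, with a bound of at least 287-fold against 309-fold on the chosen probe. Rpl39l was therefore lower in clones on both probes, although the other probe still detected it in 6 of them. Whether either probe also binds Rpl39 was not tested.

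Dkk1, with a second qualifying probe, was at 0.44, -2.49, -1.67 and -2.05 in IVF embryos and again high only in siXist clone 3 among clones, at 1.16, with the other 7 clones between -8.12 and -7.59. Irx2, also with a second qualifying probe, differed by 3.09, and a further Irx2 probe was detected on 0 arrays. Mpped2 differed by 5.28 on a probe detected in all IVF embryos and in 4 clones. Its highest clones on that probe were siCont clone 1 at -0.84 and siXist clone 1 at -1.41, and the others lay between -9.03 and -4.74. Fbxl21 differed by 3.05 and Rab3gap2 by 3.62 on probes detected in 3 IVF embryos. Gml and Crtac1 differed by 2.04 and 1.85 on probes detected in 2 IVF embryos each, and in 1 and 0 clones.

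For other members the second probe showed no such difference. Atg3 read between 3.21 and 3.99 in IVF embryos and between 2.61 and 4.45 in clones on its other probe, a mean difference of 0.01 with all 12 arrays detected. Rab3gap2 differed by 0.05 and Pabpc2 by 0.11 on probes that were also detected on all 12. Neurod2 differed by 0.07 and a Tfap2b probe by 0.09, both close to the floor. Pcnx2 differed by 0.61 on a probe detected in 2 IVF embryos and in 5 clones. For these 6 genes the rule holds for 1 stretch of the transcript and not for another, and whether the probes read other isoforms or related genes was not tested. Probes of Ramp1 (-0.12), Xdh (0.15), Iqca (0.27) and Galnt4 (1.77) were rarely or never detected in either class and could show nothing. If every probe of a gene had to meet the clone side, 23 members would be left, and 24 if only the brightest had to qualify.

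**Figure D3:**
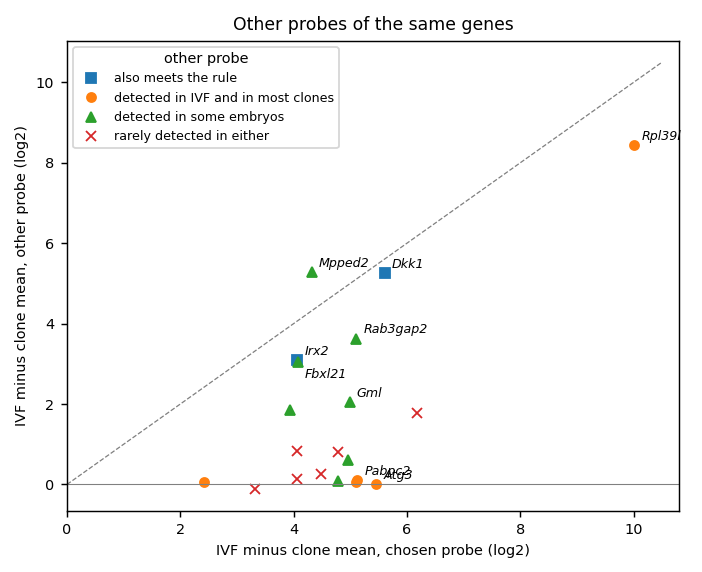
Each point is another probe of a member, with the IVF minus clone difference in log2 of the chosen probe on the horizontal axis and that of the other probe on the vertical axis. The dashed line marks equal differences and the solid line no difference. Rpl39l (10.01 and 8.44), Dkk1 (5.61 and 5.25) and Mpped2 (4.32 and 5.28) lie near the dashed line, while Atg3, Pabpc2 and a Rab3gap2 probe lie on the solid one.

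Gene order in RefSeq placed 2 pairs of members side by side, Gml with Gml2 on chromosome 15 and Pax9 with Slc25a21 on chromosome 12. The remaining 28 members had no member next to them. In the Ly6 cluster, Ly6k next to Gml was detected on all 12 arrays, at -3.97 ± 0.90 (SD, n = 4) in IVF embryos and -4.74 ± 0.58 (n = 8) in clones. Cyp11b2, the aldosterone synthase gene on the other side of Gml2, was detected on none. Ly6e and Ly6i farther along were also on all arrays, with differences of -1.25 and 0.00. Ly6d and Ly6m of the same cluster were detected in 3 and 4 clones, and in 3 and 1 IVF embryos. On their chosen probes, Gml and Gml2 were thus not well above background in any clone. The other Gml probe was well above background in siCont clone 1, at -5.31. On the chosen probes the lenient flag found signal of Gml in 6 clones and of Gml2 in 7. Gml and Gml2 are close relatives, and a probe of one may also bind the other, so they may not be separate readings.

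Around Pax9 and Slc25a21, the homeobox gene Nkx2-1 was detected in IVF embryo 4 only, at -2.46. Prps1l3, on the far side, was detected on all 12 arrays, at 2.17 ± 0.65 in IVF embryos and 1.47 ± 1.20 in clones. Foxa1, a pioneer factor of endoderm farther along, was detected on all arrays with a difference of 1.13. Mipol1, between Prps1l3 and Foxa1, was detected in 3 IVF embryos and 5 clones and differed by 1.70. Sstr1, beyond Foxa1, was detected in 2 IVF embryos and 0 clones and differed by 1.74. On the side of Nkx2-1, Mbip, Brms1l and Ralgapa1 were on all arrays and differed by 0.27, 0.45 and 0.10. The clone that detected Pax9, siCont clone 1, did not detect Slc25a21, at -8.03.

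Beside Rpl39l on chromosome 16, Grin2a, a glutamate receptor gene, was detected on none of the 12 arrays. Atf7ip2, a partner of the histone methyltransferase Setdb1, lay on the other side. It was detected on all arrays at 3.14 to 3.98 in IVF embryos, 1.45 to 2.79 in siCont clones and -1.09 to 1.07 in siXist clones, so that clones and IVF embryos did not overlap for this neighbour either, with a mean difference of 2.55. Emp2 and Nubp1 beyond it differed by -0.66 and 0.14.

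**Figure D4:**
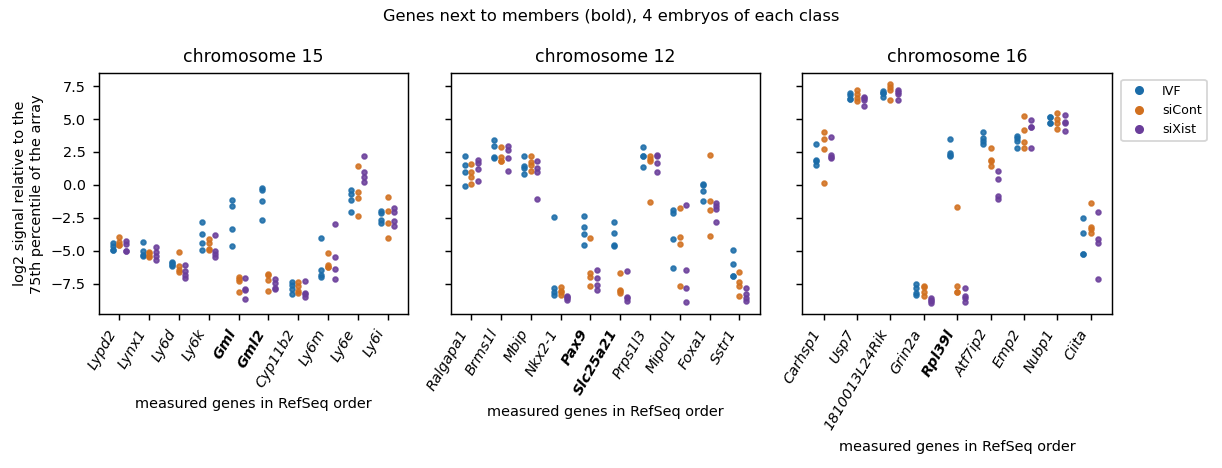
Measured genes in RefSeq order around 3 loci, with members in bold and the log2 signal relative to the 75th percentile of the array on the vertical axis, 4 embryos of each class as points. Gml and Gml2 lie apart from Ly6k and Ly6i, whose classes overlap. For Ly6e the siCont clones overlap the IVF embryos, but every siXist clone (0.25 to 2.21) lies above every IVF embryo (-2.04 to -0.36). Atf7ip2 next to Rpl39l is lower in clones by 2.55. The points include values below the detection floor.

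Over all members, 60 neighbours that were not members were measured. Of them 33 (55.0%) were detected on all 4 IVF arrays, against 62.2% of 17645 autosomal genes, and 18 (30.0%) on at most 1 clone array, against 19.5%. Of the 33, 30 were detected in 7 or 8 clones (90.9%), where all genes gave 95.2%. Their median IVF minus clone difference was 0.51 against 0.16, and 8 of the 33 (24.2%) were over 1 against 12.5%. The largest, picked after their values were seen, were Ehd3 next to Xdh at 3.82, Sbpl next to Sbp at 3.50, Mbl2 next to Dkk1 at 2.6, Atf7ip2, and Poc1b and Dusp6 on the sides of Galnt4 at 2.44 and 1.81. Sbpl and Ehd3 were each detected in 4 of 8 clones and Mbl2, a lectin of the complement system, in 6. The other way, Rasl12 beside Slc51b was lower in IVF embryos by -1.25, the 1 of the 33 under -1. The 18 neighbours detected on at most 1 clone array were detected in at most 2 IVF embryos. Besides Nkx2-1, Cyp11b2, Grin2a and C8a they were Tfap2d and Pkhd1 around Tfap2b, Srd5a2 by Xdh, Prkg1 by Dkk1, Poln by Nat8l, Lrrc18 by Wdfy4, Ifi213 by Aim2, Jaml and Tmprss4 around Scn2b, Dcpp3 by Sbp, Il9 by Fbxl21, Btla by Atg3, Irx1 by Irx2 and Dab1 by C8b. No test was made of these shares, since neighbours of a chosen gene share its region and, in clusters, its sequence.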

How the data were processed

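RNA of 12 single morulae was amplified in a pair of rounds, labelled with Cy3 and hybridised to single-colour Agilent arrays, per the labels' protocols. Per the file headers, the deposited intensity values were made by Agilent Feature Extraction 10.5.1.1 with a grid on mm9 and are background-subtracted within each array but not scaled between arrays. The authors' deposited value table is in log2 units. Judged by its values, each column is the log2 signal of the scanner file shifted by 1 constant and then centred on each probe's median, and the basis of the constant stays unknown. Its column medians were 0.56, -0.0069, 0.75 and 0.32 (IVF 1 to 4), -0.05, -0.72, -1.62 and -0.12 (siCont 1 to 4) and 0.01, 0.54, -0.18 and -0.22 (siXist 1 to 4). It served as an alternative only.

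Levels were log2(gProcessedSignal) minus the 75th percentile of each array. Spots of a probe were averaged, and a mean flag of at least 0.5 counted as well above background. Of 41174 non-control probes, 26888 (65.3%) matched a gene in the RefSeq table of GRCm38.p6, used for names, chromosomes and order, and the promoter windows were read from its sequence table (the first start listed per gene). Of these, 25929 probes of 17645 genes were autosomal. For a gene with 2 qualifying probes the one with the higher IVF mean was used. Tests used limma 3.58.1 (R 4.3.3) on all 12 arrays with a mean per group (male IVF, female IVF, siCont, siXist), on 24849 probes well above background on at least 3 of 4 arrays of a class, two-sided at an adjusted p of 0.05. The fit was tested on simulated data. The series' own text calls the clones of a group biological replicates but names no litter or session, so p-values measure the spread between these embryos. Members and lists were chosen with earlier results of these data known. Named were the 24 members with the largest bounds, those next to another member, in a list or with the smallest p, and the rest to account for the set. A gene that the naming rule gave is not reported here. Alternatives were other flags, thresholds, scalings, filters and weights, a replicate block and leaving out each array. Figures were drawn with matplotlib 3.10.9.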

Additional observations from a re-analysis of the deposited data

Results flagged for a closer look

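In groups of 4 embryos a value was looked at again when its distance to the nearest other embryo, as a share of the range of the group, passed Dixon's limit, which chance alone gives for about 1 group in 20. Among IVF embryos this held for 3 of 32 members: Dkk1 in IVF embryo 1 at 0.72 (next -1.72), Crtac1 in IVF embryo 1 at -1.07 (next -2.96) and Rab3gap2 in IVF embryo 1, the only low one, at -4.95 (next -1.87). All 3 were in the same male embryo.

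Among clones it held in 14 of the 25 groups with a detected clone. The rule admits at most 1 detected clone per member, so a lone high value is what the choice of members allows, and nothing is read from their number. In siCont clones the lone values were Rpl39l at -1.67 and Iqca at -3.48 and Irx2 at -5.90 in clone 2, Mpped2 at -0.14 in clone 1 and Nat8l at -1.03 in clone 4. In siXist clones they were Dkk1 at -0.50 and Sbp at -3.45 in clone 3, Otop1 at -2.82 in clone 1, and in clone 2 Rab3gap2 at -2.11, Galnt4 at -3.46, Atg3 at -4.24, Mpst at -4.38, Fbxl21 at -4.63 and C8b at -5.31. For Dkk1 the second probe was high in the same clone.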

How the results depend on the processing

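The number of genes depends on where the thresholds lie. It was 32 as reported and also 32 with all spots of a probe required, 24 with the brightest and 23 with every probe required, 21 with the lenient flag (5 of them members), 7 with 0 clones allowed, 80 with 2, 111 with 3 of 4 IVF arrays and 157 with male IVF embryos only. Leaving out single arrays gave 35 to 64, with more than 1.5 times 32 without IVF 2 (61), IVF 4 (64), siCont 4 (50) or siXist 1 (50). Leaving out an array only loosens the rule, so no member could drop out. The median IVF minus clone difference was 4.87, 1.47 after normexp with an offset of 50 and quantile normalisation, 3.36 with values raised to the detection floor, 4.82 with quantile normalisation, 4.63 to 4.98 without single arrays and 5.42 in the authors' table. That table's constants averaged 0.37 in IVF embryos, -0.75 in siCont clones and 0.39 in siXist clones. Over the members 512 such differences were computed and 0 changed sign. The rule nearly fixes the sign of these differences, so nothing is read from that count. Neurod2 turned from -1.05 to 0.085 between siXist and siCont clones in that table, by the 1.14 that it adds to all probes there, and the shift of IVF embryos over clones is 0.55. The normexp offset of 50 is added to every signal, dim ones included, and its part in the smaller median was not tested.

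Members called stayed at 0 for both tests under each alternative, while calls among all probes ran from 0 to 24 for siXist minus siCont clones (main 5; 15 with only those groups) and 6 to 70 without single arrays (70 without siXist 1). For female minus male embryos they ran from 0 to 26 (main 4; 26 with no filter on dim probes, 0 with only those groups) and 4 to 9 without single arrays. No pairing by replicate number was seen: correlations of same-number embryos lay between -0.14 and 0.07, 0 of 12 over 0.1. Those of other pairs across classes lay between -0.17 and 0.15. This check cannot exclude a pairing that leaves no such correlation. With the replicate block, 0 members were called in either test, and 0 and 2 probes in all. Signal near background limits all of these values.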
